A study of Mus musculus with 25 samples.

Results

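Rab GTPases and syntaxins are the switches and fusion proteins of membrane traffic, and their transcripts were followed here in 4 tissues of 2 mouse strains. The members were the array probes that the platform annotation pairs with 1 gene whose symbol is Rab or Stx followed by a digit, leaving out the Rab-interacting genes and the syntaxin-binding genes. This gave 61 genes, 51 Rab and 10 syntaxin genes, of the 13832 genes named by a probe with 1 gene. They are measured by 63 of the 32996 probes on the array, and 14401 of these have 1 gene. Each of the 63 probes is called a member. Rab11b and Rab5b had 2 probes each, called probe A and probe B below, and the other genes had 1.

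The arrays came from the congenic strain B6.C-D7Mit353, which the labels call lean and a homozygote and whose name holds a marker on chromosome 7, and from C57BL/6J, the background strain, shortened to B6. Brain, liver, gonadal white adipose tissue (gonadal fat) and gastrocnemius muscle were taken from mice of each strain, for which the labels name no treatment and no age. Each of the 8 groups of tissue and strain holds 3 arrays with 1 sample each. The numbers in the liver, fat and muscle titles recur across tissues and were taken to name the animal, while brain titles are coded differently, so each brain array was treated as its own animal. The donor segment of a congenic strain carries many genes beside the marker, and the labels do not give its bounds.

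A Rab protein sits on a membrane in its GTP-bound state, where it recruits effectors that bud, move or tether vesicles, and is drawn back into the cytosol by a GDP dissociation inhibitor after GTP hydrolysis. Each Rab marks its own compartment, such as the Golgi, the early endosome or the secretory vesicle. Syntaxins are SNARE proteins of the target membrane. With a SNAP protein and a VAMP protein of the vesicle they form the helical bundle that drives fusion, most studied at the synapse, where syntaxin 1A carries neurotransmitter release.

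A probe is called detected on an array where the deposited signal to noise ratio was at least 3. Between 13115 and 18236 probes and between 35 and 53 members were detected per array. The brain, liver, adipocyte and muscle marker lists had every gene with a probe detected in its own tissue. On these and other marker lists 3 arrays stood apart the most: gonadal fat congenic replicate 1 had a mean log2 signal of 9.96 over 9 testis and epididymis genes against 14.77 to 17.16 on the other fat arrays, liver congenic replicate 2 had 18.64 over 4 pancreas genes against 8.83 to 13.46 on the other liver arrays, and gastrocnemius B6 replicate 1 had 13.03 over the same 4 genes against 7.78 to 8.22. Reproductive tract genes were thus bright on 5 fat arrays and dim on 1. By smaller margins, brain B6 replicate 1 had 5 of 6 liver genes detected and a mean of 11.24 over them against 9.86 to 10.28 on the other brain arrays, gastrocnemius congenic replicate 2 had a mean of 12.25 over 5 adipocyte genes against 9.88 to 10.79 on the other muscle arrays, here with muscle normalized alone, and the mean over 7 muscle genes ran from 9.63 to 12.99 on the fat arrays, lowest on B6 replicate 3 and highest on B6 replicate 1.

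Of the 63 members, 29 were detected on all 24 arrays compared, among them Rab1a, Rab5a, Rab11a, Rab14, Rab7 and Stx5a, and none was undetected throughout. Brain had 48 members detected on at least 3 of its 6 arrays, liver 38, gonadal fat 53 and gastrocnemius 37. These are 76.2%, 60.3%, 84.1% and 58.7% of the members, beside 63.3%, 54.8%, 67.6% and 53.2% of the probes with 1 gene. For the tissue comparison all 24 arrays were normalized together, and log2 signals on this scale are called levels across tissues. The 57 members detected on at least 3 arrays of a tissue entered it. Rab37, Rab39, Rab40b, Rab9b, Stx19 and Stx8 did not. That filter admits a probe through the tissue where it is bright, so counts over the members tested are descriptions. Each tissue was compared with the mean of the other 3 by limma, with adjustment over 21516 probes, and a difference of any kind among the tissues was found for 52 of 57 members (91.2%), beside 85.1% of all probes tested. The comparisons are not independent, since each tissue also enters the mean set against the others. A member bright in a single tissue thus tends to read lower in the rest.

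In brain 25 members were higher than in the other tissues and 15 lower, beside 31.3% and 34.9% of all probes tested. The median difference of the members was 0.20 on the log2 scale, against -0.15 over all probes. For 15 members every brain array lay above every array of the other tissues, which held for 12.8% of all probes. They were Stx1a, Rab33a, Rab6a, Rab6b, Rab39b, Rab3a, Rab3b, Rab3c, Rab15, Rab27b, Rab2b, Rab31, Rab4a, Rab4b and Rab11b by its probe B. In liver every array of a member lay above the rest for 4 members (6.97% of all probes), in gonadal fat for 3 (3.01%) and in gastrocnemius for 3 (7.12%). Less RNA per cell and fewer cells of a type cannot be told apart in such whole-tissue samples.

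**Figure D1:**
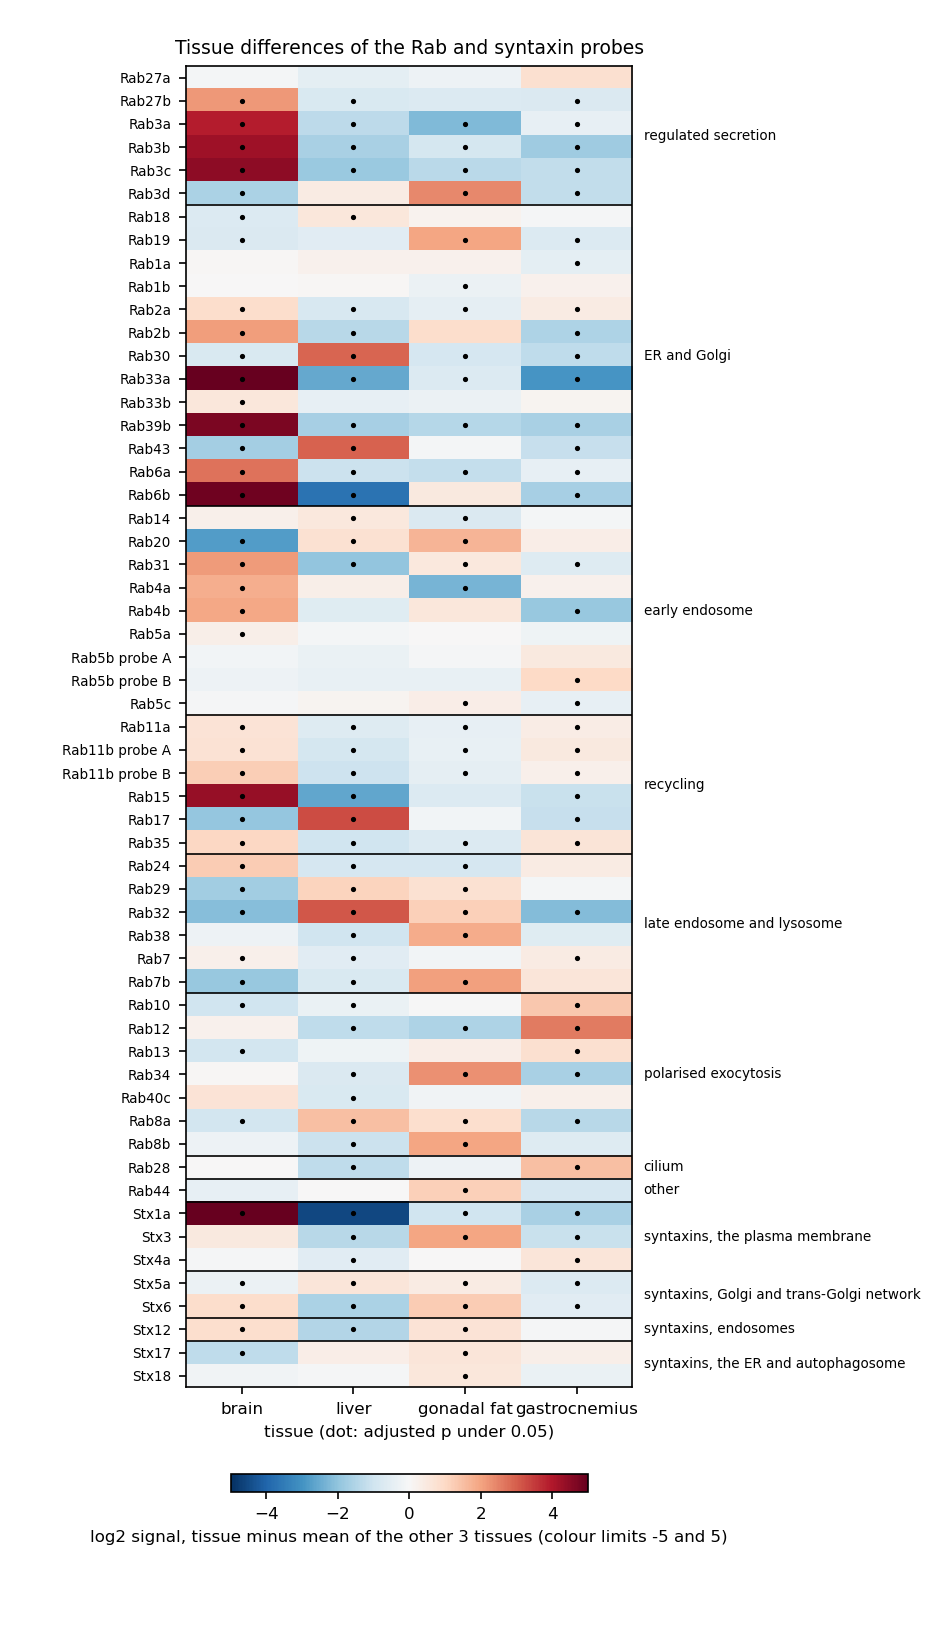
Log2 difference of each tissue (columns) from the mean of the other 3 tissues for the 57 member probes tested (rows), grouped by role, in red where higher and blue where lower; colours stop at -5 and 5, and a dot marks an adjusted p under 0.05. Brain holds the deepest red cells, with Stx1a at 7.16 and Rab33a at 6.17, and Rab1a and Rab1b stay pale in every tissue.

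Among the members of regulated secretion, which dock granules and synaptic vesicles for release, 4 of 6 tested were higher in brain and 1 lower, beside 31.3% and 34.9% of all probes. Rab3a, the main Rab of synaptic vesicles, had levels of 15.86, 16.16 and 16.41 in brain (lowest, median and highest of 6 arrays). Its levels in gastrocnemius ran from 12.46 to 13.19, in liver from 11.90 to 12.48 and in gonadal fat from 10.97 to 12.24. Brain thus stood apart from the other 3 tissues, whose ranges overlapped from one to the next. The brain difference was 3.91 ± 0.13 (SE, n = 6 arrays, adjusted p = 2.24e-17). Rab3b differed by 4.25 ± 0.33 in brain, from 12.86 to 13.41 there, and was detected on 4 of 6 fat arrays, 2 muscle arrays and 1 liver array. Rab3c, at 11.89 to 12.55, was detected on all 6 brain arrays and on 1 other array, in gastrocnemius. It was at least 22.1-fold higher in brain. Such a value sets the bright tissue against dim arrays held at the lowest detected signal or their own, whichever was higher. That floor raised the dim arrays little or not at all, so these folds are near the plain difference of means. The words at least mark undetected arrays, and each fold is an estimate with error on both sides.

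Rab3d, the Rab3 of zymogen and mast cell granules, had another order. Its levels in gonadal fat were 10.95, 11.58 and 12.15, with all 6 arrays detected, while 2 of 6 liver arrays and no brain or muscle array detected it. The fat difference was 2.41 ± 0.30 (SE, adjusted p = 4.28e-07), at least 5.25-fold. The mast cell and platelet genes taken as a list had a mean log2 signal of 11.68 to 12.68 on the fat arrays and of 11.42 to 12.46 on the muscle arrays. That mean mixes genes of both cell types, and their part in the result was not tested. Rab27b, which with Rab27a releases granules and lysosome-related organelles, was detected on 6 of 6 brain arrays at 9.56 to 10.95 and on no array of another tissue, and its brain level was higher by at least 4.47-fold. Rab27a had no tissue difference past the test. It ranged from 7.52 to 11.54 within gastrocnemius alone, and was detected on 10 of the 24 arrays.

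Stx1a, the plasma membrane syntaxin of neurons, was the member of the largest difference. Its brain levels were 16.71, 16.89 and 17.33. The 6 fat arrays, all detected, ran from 10.36 to 11.34, the muscle arrays from 8.60 to 12.25 with 4 detected, and the liver arrays from 7.22 to 8.64 with none. Brain lay above the others by 7.16 ± 0.32 (SE, adjusted p = 2.10e-15), at least 143-fold, and liver lay at least 23.3-fold below the mean of the others. Fat and muscle overlapped each other. Of the 3 plasma membrane syntaxins tested, Stx4a, the syntaxin of insulin-stimulated GLUT4 vesicles, was higher in gastrocnemius by 0.62 ± 0.12 (adjusted p = 7.65e-05), and Stx3, of apical membranes, was higher in fat.

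The ER and Golgi group had 7 of 13 members higher in brain and 4 lower, beside 31.3% and 34.9% of all probes. In gastrocnemius 1 was higher and 9 lower, beside 24.9% and 31.7%. Of these 9, Rab19, Rab30, Rab33a, Rab39b and Rab43 were detected on no gastrocnemius array, and Rab2b and Rab6b on 2 of 6 each. Rab33a, a Golgi and axonal Rab of neurons, was at 14.41 to 14.92 in brain, at 8.92 to 10.06 in fat with 5 arrays detected, and undetected in liver and muscle. Its brain difference was 6.17 ± 0.23 (adjusted p = 6.39e-17), at least 72.2-fold. In gastrocnemius, where no array detected it, it was called lower, and no size is given. Rab6b, the neuronal form of the Golgi Rab6, differed by 4.88 ± 0.22 and was at least 29.4-fold higher in brain, with liver at least 13.2-fold below the others. Its ubiquitous paralogue Rab6a differed by 2.70 ± 0.12 and was detected on every array. Rab39b, mutated in a human X-linked form of intellectual disability, was detected on the 6 brain arrays only, at 12.37 to 12.85, at least 25.7-fold higher there.

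The promoters of leading brain members are shown because these probes were high together. RefSeq's promoter table for GRCm38.p6 holds the 250 bases before and 50 after a start for 52 of the 61 genes, in 64 promoters. The windows are chr5:135023232-135023531 on the plus strand, chr8:70754453-70754752 on the plus strand (the first of 2 starts), chrX:48519035-48519334 on the plus strand and chr9:103111824-103112123 on the plus strand. Capitals mark matches on either strand to the GC box GGGCGG, the E-box CACGTG, the cyclic AMP response element half-site TGACGT, the TATA box TATAAA and the CCAAT box. Each motif was counted on its own, so matches of different motifs may overlap.
Stx1a: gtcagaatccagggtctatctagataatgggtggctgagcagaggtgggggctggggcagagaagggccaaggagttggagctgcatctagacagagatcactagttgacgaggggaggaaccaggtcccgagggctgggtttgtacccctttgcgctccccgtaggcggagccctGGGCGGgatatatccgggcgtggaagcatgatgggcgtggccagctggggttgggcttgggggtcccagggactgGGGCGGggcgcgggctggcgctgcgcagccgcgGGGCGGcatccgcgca
Rab3a: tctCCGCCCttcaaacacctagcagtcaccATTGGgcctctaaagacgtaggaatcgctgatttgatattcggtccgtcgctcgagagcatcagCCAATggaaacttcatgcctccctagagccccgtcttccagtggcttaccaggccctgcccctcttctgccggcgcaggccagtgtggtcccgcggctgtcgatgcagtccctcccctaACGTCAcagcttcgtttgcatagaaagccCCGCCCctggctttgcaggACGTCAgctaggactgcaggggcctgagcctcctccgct
Rab33a: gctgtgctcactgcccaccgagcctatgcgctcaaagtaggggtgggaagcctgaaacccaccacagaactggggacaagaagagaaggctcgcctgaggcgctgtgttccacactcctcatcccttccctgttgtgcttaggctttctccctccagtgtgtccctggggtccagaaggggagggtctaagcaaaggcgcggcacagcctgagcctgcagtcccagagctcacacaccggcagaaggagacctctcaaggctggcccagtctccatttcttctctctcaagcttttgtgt
Rab6b: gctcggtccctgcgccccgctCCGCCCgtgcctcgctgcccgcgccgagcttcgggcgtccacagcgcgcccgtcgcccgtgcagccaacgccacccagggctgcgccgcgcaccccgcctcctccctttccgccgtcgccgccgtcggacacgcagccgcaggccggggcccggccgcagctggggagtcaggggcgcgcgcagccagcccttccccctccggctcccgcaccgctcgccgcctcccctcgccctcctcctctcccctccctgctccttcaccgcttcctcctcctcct
The GC box occurred in 58.8% of the 17 promoters of members apart in brain, in 72.3% of the 47 promoters of the other members and in 35.7% of the 32851 promoters of the table. The half-site occurred in 17.6%, 6.38% and 7.51%, and the E-box in 0, 10.6% and 7.15%. The TATA box occurred in 11.8%, 4.26% and 13.6%, and the CCAAT box in 41.2%, 46.8% and 37.4%. None of these motifs was matched in the Rab33a window, nor in that of the second Rab3a start, which is not printed.

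**Figure D2:**
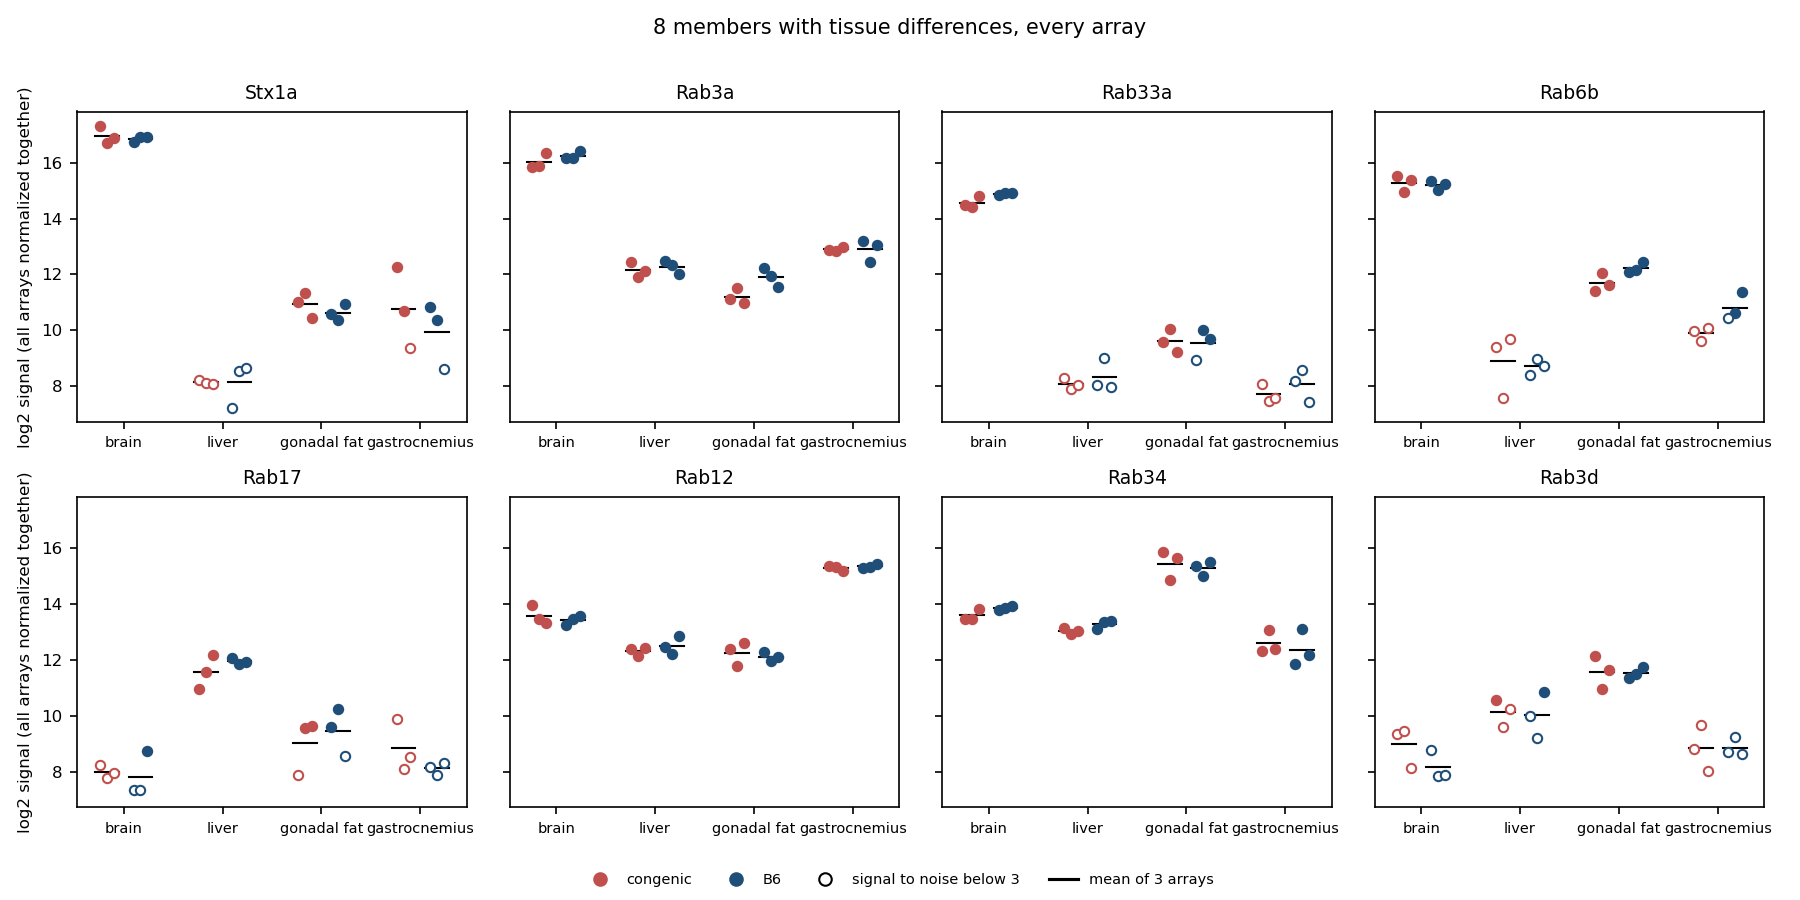
Log2 signal with all arrays normalized together (y axis) of 8 members in each tissue (x axis), with 1 point per array, in red for congenic and blue for B6; open points had a signal to noise ratio below 3 and bars are means of 3 arrays. Stx1a, Rab3a, Rab33a and Rab6b peak in brain, Rab17 in liver, Rab12 in gastrocnemius, and Rab34 and Rab3d in gonadal fat.

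Of the recycling group of endosomal Rabs, 5 of 6 were higher in brain and 5 of 6 lower in liver, beside 31.3% and 34.8% of all probes. The sixth, Rab17, went the other way in both, and its values are given with the liver results. Rab11a, which marks the recycling endosome, was highest in brain (12.88 to 13.30) and then gastrocnemius (12.48 to 13.01), whose ranges overlapped, and lowest in liver (11.64 to 12.20), which overlapped fat (12.04 to 12.43), by 0.68 ± 0.12 for brain and -0.65 ± 0.12 for liver. Both Rab11b probes had that order, with brain differences of 0.74 ± 0.13 and 1.24 ± 0.09. Rab15, which regulates exit from the sorting endosome, had wider differences than the Rab11 probes, at least 20.7-fold higher in brain and at least 5.65-fold lower in liver. The brain level, 3.83 above that of fat, the second tissue, enters that liver comparison, and no liver array detected Rab15.

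The Rab5 paralogues, the Rabs of early endosome fusion, had narrow differences. Rab5a ran from 13.50 to 14.36 in brain and from 13.52 to 13.81 in gastrocnemius, and was higher in brain by 0.30 ± 0.12 (adjusted p = 0.0315), a call that was lost with median centring of uncorrected signals and in 4 of 24 fits without 1 array. Rab5c differed by 0.33 ± 0.12 in fat, also lost with median centring and in 2 of 24 such fits, and by -0.43 ± 0.12 in gastrocnemius. The probes of Rab5b did not give one answer, since probe B was higher in gastrocnemius by 0.99 ± 0.32 (adjusted p = 0.0107) and probe A stood at 0.51 ± 0.28 (adjusted p = 0.125). Rab4a and Rab4b, of fast recycling, were both higher in brain, by 1.81 ± 0.15 and 1.94 ± 0.26. Rab4a then parted from Rab4b: it had the largest negative difference in gonadal fat, -2.31 ± 0.16, at 10.56 to 11.56, whereas Rab4b had its negative difference in gastrocnemius, -1.89 ± 0.27. The largest negative brain differences were those of Rab20 (-2.79 ± 0.32), of phagosomes and early endosomes and detected on 1 of 6 brain arrays, Rab32 (-2.14 ± 0.46) and Rab17 (-1.95 ± 0.32).

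In liver 10 members were higher and 31 lower, beside 24% and 34.8% of all probes, with a member median of -0.60 against -0.21. Rab17, which serves transcytosis in polarised epithelia, had levels of 10.96, 11.90 and 12.17 in liver and of 7.90 to 10.25 in fat, was undetected in muscle and was detected on 1 brain array. It was at least 9.31-fold higher in liver. Rab32, a Rab of mitochondria and lysosome-related organelles, was detected on all liver, fat and brain arrays, at 13.07 to 13.56 in liver and 11.07 to 12.82 in fat, a liver difference of 3.10 ± 0.47 (adjusted p = 4.57e-06). In gastrocnemius 2 arrays detected Rab32, congenic replicate 2 at 11.19 and B6 replicate 2 at 12.24, and the other 4 lay between 7.97 and 8.82, so its muscle difference of -2.16 ± 0.47 rests on a divided group. Rab43 and Rab30, both of the Golgi, were at least 7.74-fold and at least 7.62-fold higher in liver. All 4 genes stood above every array of the other tissues. The largest negative differences in liver, of Stx1a, Rab6b and Rab15, are those of brain genes undetected there.

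In gonadal fat 19 members were higher and 18 lower, beside 28.6% and 26% of all probes, with a member median of -0.05 against 0.04. Rab34, which acts in lysosome positioning and cilium formation, had levels of 14.87, 15.43 and 15.86 in fat and at most 13.94 elsewhere, a difference of 2.27 ± 0.17 (adjusted p = 1.00e-10). Rab7b, of late endosome to Golgi transport, was detected on 5 fat arrays and 1 muscle array, and its fat level was higher by at least 4.13-fold. Rab8b, a paralogue of the exocytic Rab8a, differed by 1.99 ± 0.32 from 9.51 to 10.57. In the late endosome and lysosome group 4 of 6 members tested were higher in fat and 1 lower, beside 28.6% and 26% of all probes. The 4 were Rab7b, Rab29, Rab32 and Rab38, of which Rab29 and Rab32 had their highest mean level in liver and not in fat. The macrophage and lymphocyte list had 3 of its 5 genes detected on every fat array, with Cd3e and Cd79a undetected, and a mean log2 signal of 9.81 to 10.68 there against 8.01 to 9.84 in the other tissues, and its part in these differences was not tested. The largest negative differences were those of Rab4a, of Rab3a (-2.21 ± 0.14) and of Rab12 (-1.56 ± 0.13).

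Gonadal fat congenic replicate 1, the array with little reproductive tract signal, divided these 19 members. It was the lowest fat array for 5 of them, Stx3, Rab19, Rab20, Rab8a and Stx5a, and the highest for 7, Rab34, Rab3d, Rab8b, Rab29, Rab31, Rab32 and Rab38. Stx3 was at 8.03 there, undetected, against 10.36 to 11.66 on the other fat arrays. Rab19 was at 8.73 against 9.04 to 10.66, and Rab20 at 10.56 against 11.60 to 12.48. Rab34 was at 15.86 against 14.87 to 15.64. For 17 of the 19 the array still lay above the mean of the other tissues, Stx3 and Stx5a being the exceptions. With the 3 arrays that stood apart left out, 19 members were higher and 14 lower in fat. The difference of Stx3 was 2.62 in place of 1.97, and that of Rab34 was 2.08. Rab32 (0.88, adjusted p = 0.147 by limma) and Rab31 (0.35, adjusted p = 0.114) lost their call. That fit keeps only the fat arrays with bright reproductive tract genes, so it is no check on that signal. The rise of Stx3 in it follows from leaving out the fat array where Stx3 was undetected. The part of reproductive tract RNA in these levels was not tested.

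**Figure D3:**
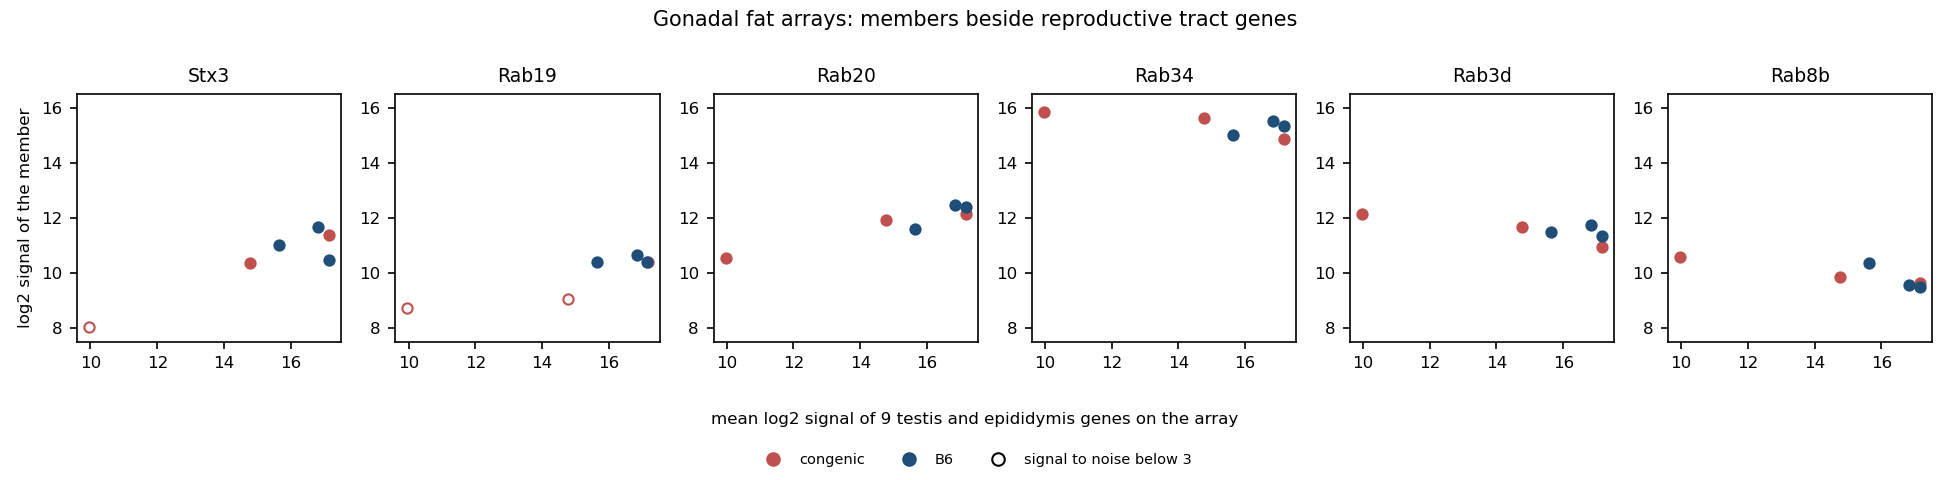
Log2 signal of 6 members called higher in gonadal fat (y axis) against the mean log2 signal of 9 testis and epididymis genes on the same array (x axis), 1 point per fat array, in red for congenic and blue for B6, open where the signal to noise ratio was below 3. The array at the far left, congenic replicate 1, is lowest for Stx3 (8.03), Rab19 and Rab20 and highest for Rab34 (15.86), Rab3d and Rab8b.

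In gastrocnemius 12 members were higher and 26 lower, beside 24.9% and 31.7% of all probes, with a member median of -0.41 against -0.18. Rab12, of endosome to lysosome transport, had levels of 15.20, 15.33 and 15.42, while brain reached 13.96, liver 12.85 and fat 12.62. Its muscle difference was 2.62 ± 0.13 (adjusted p = 3.82e-14). Rab28, a Rab of cilia, followed with 1.51 ± 0.16 and levels of 13.30 to 14.09. Rab10, which carries GLUT4 vesicles to the plasma membrane in adipocytes, was at 14.86 to 15.21 and differed by 1.35 ± 0.10. It lay at 13.92 to 14.17 in fat, so muscle stood above fat on every array. Rab5b probe B was the fourth. The 4 largest positive and 3 largest negative differences of each tissue kept their call in each of 24 fits that left out 1 array. With median centring of uncorrected signals 4, 4, 2 and 5 of the members called in brain, liver, fat and muscle lost the call, and Rab7, of the late endosome, turned from 0.27 to -0.15 in brain.

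Partners of Rab and SNARE action, from a list of 84 genes of which 60 had a probe and 54 were tested, were counted in the same fit. In brain 23 were higher and 17 lower, in liver 12 and 30, in fat 20 and 18, and in gastrocnemius 17 and 20. All probes had 31.3% and 34.9% in brain, 24% and 34.8% in liver, 28.6% and 26% in fat, and 24.9% and 31.7% in gastrocnemius. The largest brain differences were those of the complexin genes Cplx1 (9.31 ± 0.24) and Cplx2 (6.86 ± 0.16), clamps of synaptic SNARE bundles, and of the vesicle protein gene Syn1 (7.45 ± 0.45). In gonadal fat they were those of the Rab27 effector gene Sytl4 (5.53 ± 0.64), of Stxbp2 (2.28 ± 0.24), a syntaxin chaperone of secretory blood cells and epithelia, and of Sytl3 (2.05 ± 0.37). Sytl4 varied widely among the fat arrays, with congenic minus B6 at -2.49 ± 1.21 (SE) when fat was normalized alone. Sytl3 was detected on 4 of 6 fat arrays, and the part of reproductive tract RNA in these differences was not tested. In gastrocnemius they were Rilpl1 (4.13 ± 0.32), Vamp5 (4.03 ± 0.21), a VAMP of muscle, and Tbc1d1 (2.65 ± 0.30), the GTPase-activating protein that restrains Rab10 and its relatives. In liver they were Vamp8 (2.21 ± 0.13), Stxbp2 (2.10 ± 0.24) and Sytl1 (1.74 ± 0.30).

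The strains were then compared within each tissue, after normalization of that tissue's 6 arrays alone, and the log2 signals that follow are on this within-tissue scale. None of the members tested passed the test in brain (0 of 48), liver (0 of 38), gonadal fat (0 of 53) or gastrocnemius (0 of 37) by limma, and 0% of all probes did in each tissue. At an unadjusted p under 0.05 there were 6 members in brain, 1 in liver, 1 in fat and 2 in gastrocnemius, beside 9.65%, 3.27%, 3.46% and 2.81% of all probes. The congenic and B6 values did not overlap for 7, 3, 4 and 4 members, beside 15.4%, 6.96%, 8.1% and 7.76% of all probes. Members differed by less than 0.5 on the log2 scale in 43 of 48, 37 of 38, 45 of 53 and 32 of 37 cases, in the same order of tissues (89.6%, 97.4%, 84.9% and 86.5%, beside 83.6%, 83.0%, 70.4% and 83.1% of all probes). The values below are those of the smallest p in each tissue, none of which passed the adjustment.

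**Figure D4:**
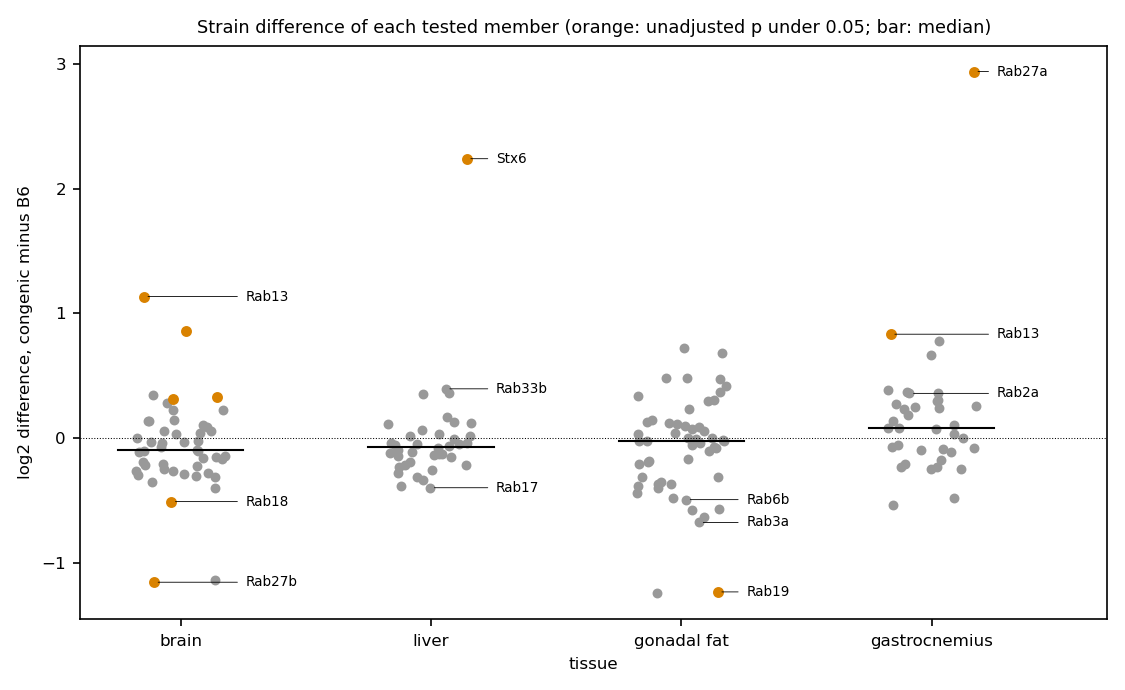
Log2 difference, congenic minus B6 (y axis), of every tested member in each tissue (x axis), in orange where the unadjusted p was under 0.05, with the median as a bar. Most points lie within 0.5 of 0, and Rab27a in gastrocnemius (2.94) and Stx6 in liver (2.24) stand above the rest, although neither passed the adjustment over all probes.

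In gastrocnemius Rab27a had log2 signals of 11.09, 10.21 and 11.01 in the congenic and of 7.89, 8.09 and 7.52 in B6. Its signal to noise ratio was 8.6, 4.7 and 10.9 in the congenic and 0.9, 1.8 and 0.7 in B6. All congenic arrays thus lay above all B6 arrays, none of which detected it. The means were 10.77 ± 0.48 and 7.83 ± 0.29 (SD, n = 3 each), and the difference was 2.94 ± 0.47 (SE), 7.67-fold as a point estimate. By limma the unadjusted p was 0.000188 and the adjusted p 0.996. The adipocyte list had 3 to 4 of its 5 genes detected on the congenic muscle arrays and 1 to 2 on the B6 arrays. Its mean log2 signal, on the scale across tissues, was 10.96 to 12.49 against 9.92 to 10.92, without overlap. The summed log2 signal was 17.53 to 18.65 against 17.25 to 17.82, with overlap, and the part of the list in the Rab27a difference was not tested. Rab27a was detected on 3 of 6 gonadal fat arrays. Without B6 replicate 1, the muscle array with pancreas signal, the difference was 3.01 ± 0.51, and without any 1 congenic array the probe did not pass the filter. In gonadal fat Rab27a differed by 0.72 ± 0.54 (adjusted p = 0.909). In liver it had 8.95, 8.81 and 8.30 against 6.13, 6.89 and 9.32, and in brain 9.03, 11.15 and 9.87 against 8.18, 10.28 and 8.80. The groups overlapped in both, and with 2 of 6 arrays detected in each it was not tested there. Rab13, of tight junctions, followed in gastrocnemius with 10.99, 11.05 and 10.58 against 9.87, 10.34 and 9.92. It was undetected in B6 and 1.78-fold higher in the congenic as a point estimate (adjusted p = 0.996 by limma). It passed the filter through the congenic arrays alone, as did Rab27a. Rab2a, of ER to Golgi traffic, differed by 0.36 ± 0.19, with overlapping groups, and by 0.19 without B6 replicate 2.

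In liver Stx6, the syntaxin of transport between the trans-Golgi network and endosomes, had 10.45, 9.34 and 10.86 in the congenic and 7.95, 8.29 and 7.68 in B6. No B6 array detected it, at ratios of 1.1, 0.0 and 0.2, while the congenic ratios were 13.5, 4.5 and 13.6. The difference was 2.24 ± 0.50 (SE), 4.72-fold as a point estimate, with an unadjusted p of 0.00117 and an adjusted p of 0.9999 by limma. The congenic array with pancreas signal, replicate 2, was the lowest of its group. Without any 1 congenic array the probe did not pass the filter. In the other tissues Stx6 differed by -0.04 ± 0.18 in brain, 0.30 ± 0.36 in fat and 0.03 ± 0.38 in gastrocnemius. Rab33b, which joins Golgi traffic to autophagosome formation, differed by 0.39 ± 0.31 in liver and Rab17 by -0.40 ± 0.34, both with overlapping groups. Without B6 replicate 1 or 2 the Rab33b difference was 0.63 or 0.18, and without congenic replicate 1 or 3 that of Rab17 was -0.09 or -0.71.

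The promoters of these 2 genes are shown in the same form as those above, at chr9:73044560-73044859 on the plus strand for the first of 2 starts of Rab27a and at chr1:155158453-155158752 on the plus strand for Stx6. The GC box is in both of these windows, and the E-box and the CCAAT box are in that of Stx6. The second start of Rab27a, not printed, has 1 E-box, 2 CCAAT boxes and no GC box.
Rab27a: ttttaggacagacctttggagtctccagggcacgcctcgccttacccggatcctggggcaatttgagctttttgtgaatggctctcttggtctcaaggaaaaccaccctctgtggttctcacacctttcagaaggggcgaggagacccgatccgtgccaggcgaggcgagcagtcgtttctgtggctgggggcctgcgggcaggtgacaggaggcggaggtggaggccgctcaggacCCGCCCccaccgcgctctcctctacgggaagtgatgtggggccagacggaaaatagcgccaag
Stx6: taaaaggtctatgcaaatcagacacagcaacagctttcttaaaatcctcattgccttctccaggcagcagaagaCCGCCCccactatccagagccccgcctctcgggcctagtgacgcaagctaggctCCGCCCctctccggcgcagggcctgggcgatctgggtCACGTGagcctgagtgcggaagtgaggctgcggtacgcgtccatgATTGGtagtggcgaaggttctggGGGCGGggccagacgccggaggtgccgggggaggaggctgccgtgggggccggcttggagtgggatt
Neither gene lies on chromosome 7.

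In brain the smallest p was that of Rab27b, with 10.74, 10.41 and 10.90 in the congenic against 11.73, 11.86 and 11.93 in B6, all detected. The difference was -1.16 ± 0.27 (SE, adjusted p = 0.480 by limma). Rab13 had 11.15, 11.15 and 10.74 against 10.40, 9.27 and 9.97, a difference of 1.13 ± 0.40 (adjusted p = 0.480), and B6 replicate 2 did not detect it. Rab18, of lipid droplets and the ER, differed by -0.51 ± 0.20 with overlapping groups. In gonadal fat the smallest p was that of Rab19, at 8.75, 10.64 and 9.14 against 10.65, 10.65 and 10.93. Only the second of these congenic arrays detected it, and the first is the array with little reproductive tract signal. The difference was -1.23 ± 0.53 (adjusted p = 0.909), and -0.87 ± 0.51 without that array. Rab3a had 11.37, 11.74 and 11.23 against 12.42, 12.17 and 11.77 in fat, a difference of -0.68 ± 0.30, and Rab6b one of -0.49 ± 0.27. The groups did not overlap for these 3 genes in fat.

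Over the 4 tissues together, in the fit on the scale across tissues, 0 of 57 members passed for the strain average (0% of all probes), and 5 had an unadjusted p under 0.05, beside 6.62% of all probes. Rab27a had the smallest p. Its average difference was 1.59 ± 0.33 (SE, adjusted p = 0.633), made of 0.78 ± 0.69 in brain, 1.53 ± 0.69 in liver, 0.63 ± 0.69 in fat and 3.40 ± 0.69 in gastrocnemius. Of the congenic arrays 7 of 12 detected it, and of the B6 arrays 3 of 12. Stx6 averaged 0.70 ± 0.19 and Rab13 0.68 ± 0.21 (both adjusted p = 0.723). Rab13 was detected on 10 congenic arrays and 6 B6 arrays and had higher congenic means in all 4 tissues, as had Rab27a, Rab33b and Stx1a. For 7 members the congenic mean was lower in all 4, and no share over all probes was taken for these counts by sign. Of the 63 members, 11 were detected more often in the congenic and 11 more often in B6.

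**Figure D5:**
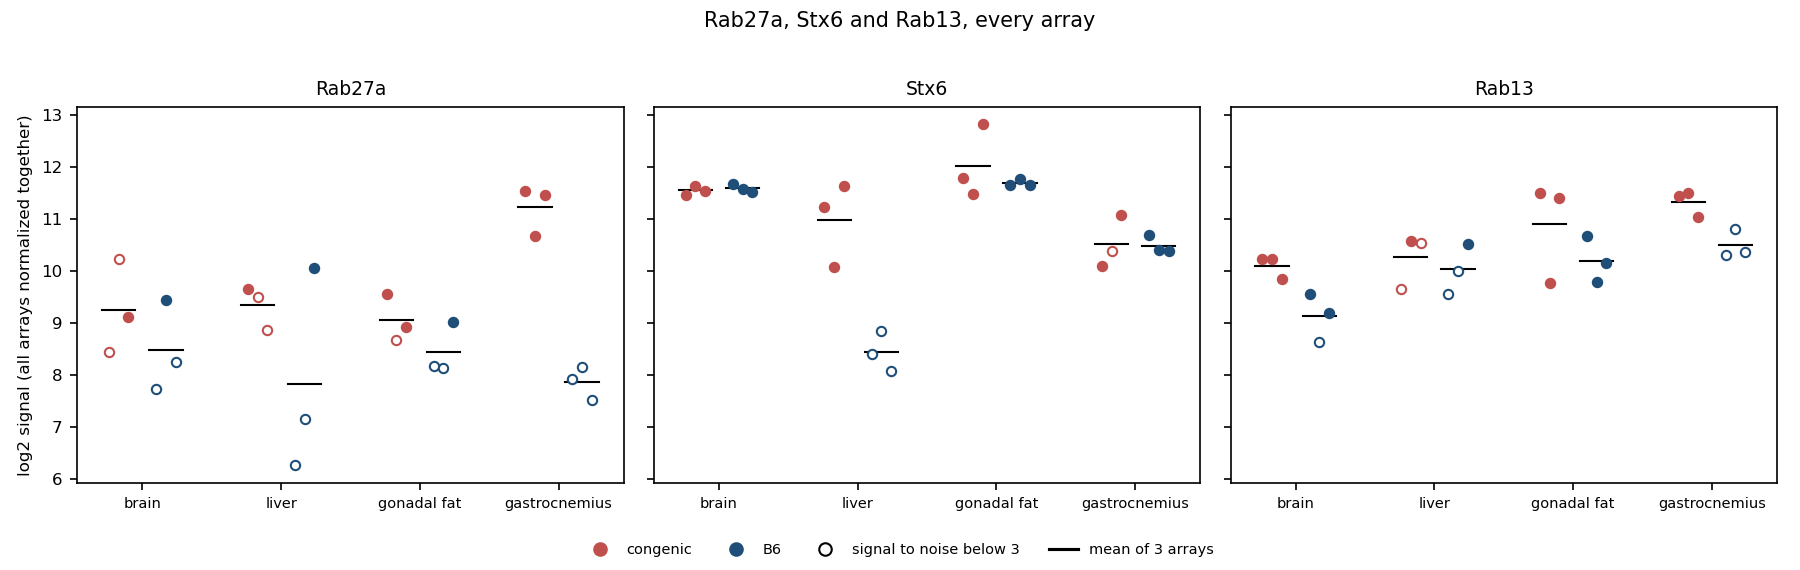
Log2 signal with all arrays normalized together (y axis) of Rab27a, Stx6 and Rab13 in each tissue (x axis), 1 point per array, in red for congenic and blue for B6, open where the signal to noise ratio was below 3, with bars at the means of 3 arrays. The strains part for Rab27a in gastrocnemius (3.40) and for Stx6 in liver (2.56), and the B6 points there are all open.

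The difference between strains did not vary with tissue past the test for any member (0 of 57, 0% of all probes), and 3 members had an unadjusted p under 0.05, beside 5.11% of all probes. These were Stx6 (adjusted p = 0.746), Rab1b (0.966), an ER to Golgi Rab, and Rab27a (0.966). Leaving out single arrays changed this outcome. Without gonadal fat congenic replicate 2 the strain averages of Rab27a (1.63, adjusted p = 0.0274), Rab13 (0.82, adjusted p = 0.0347) and Stx6 (0.78, adjusted p = 0.0457) passed, as did the interaction of Stx6 (adjusted p = 0.0190), beside 1.05% and 2.03% of all probes. Without liver B6 replicate 3, the one B6 liver array that detected Rab27a, the average of Rab27a passed (1.86, adjusted p = 0.00702) as 1 probe of all.

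Chromosome 7, which carries the congenic marker, holds 5 members, Rab30, Rab38, Rab4b, Rab6a and Stx4a. Rab30 in brain had 11.76, 11.47 and 11.16 in the congenic against 11.09, 9.80 and 10.92 in B6, a difference of 0.86 ± 0.37 (adjusted p = 0.511), and its ratio reached 3 on 1 congenic array and 2 B6 arrays. In liver, where all 6 arrays detected it, it differed by 0.35 ± 0.39 with overlapping groups. In fat and gastrocnemius, with 2 and 0 of 6 arrays detected, it was not tested within the tissue, and the fit across tissues gave -0.54 ± 0.52 and -0.33 ± 0.52. Rab6a differed by -0.10 ± 0.15 in brain, -0.05 ± 0.22 in liver, 0.09 ± 0.30 in fat and 0.14 ± 0.17 in gastrocnemius. Stx4a differed by 0.04 ± 0.14, -0.32 ± 0.29, -0.11 ± 0.22 and -0.10 ± 0.18 in the same order. Rab4b ranged from -0.39 ± 0.29 in fat to 0.67 ± 0.59 in gastrocnemius. Rab38, the melanosome Rab, differed by -1.14 ± 1.09 in brain and 0.37 ± 0.46 in fat.

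None of the partner genes passed between strains in any tissue by limma, and 7 of 50, 1 of 40, 4 of 50 and 2 of 40 had an unadjusted p under 0.05 in brain, liver, fat and gastrocnemius, beside 9.65%, 3.27%, 3.46% and 2.81% of all probes. The smallest p belonged in brain to Myrip (1.22 ± 0.33), a Rab27 effector, and Rph3a (0.50 ± 0.14), a Rab3 effector. In liver they were Tbc1d1 (1.68 ± 0.48) and Vps33a (-0.59 ± 0.29). In fat they were Stxbp2 (-0.97 ± 0.33) and Rabggta (-0.81 ± 0.30), a subunit of the enzyme that prenylates Rabs, and in gastrocnemius Rab11fip5 (-0.60 ± 0.25) and Tbc1d1 (0.46 ± 0.19).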

How the data were processed

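Total RNA of 25 samples was converted to cRNA with a digoxigenin label and hybridized to Applied Biosystems chemiluminescent arrays of 1 colour, per the labels' protocols. Per the file headers, Signal is a linear intensity as deposited, and S/N, the signal to noise ratio, a deposited score. The array software is not given in the sources used here. A deposited series matrix holds log2 values, equal on each array to log2 of the Signal plus a constant and blank where the ratio is below 3.

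Normexp background correction (offset 50), log2 and quantile normalization were applied with limma 3.58.1 in R 4.3.3. Strains were compared within each tissue (6 arrays, ratio of at least 3 on at least 3). Tissues, the strain average and the interaction came from 1 fit of 24 arrays with the title number as a random block (correlation -0.0804, 7 animals with arrays of 2 or 3 tissues). P-values were adjusted by Benjamini-Hochberg over all probes, with a threshold of 0.05. A single B6 array is listed under liver in the design text but titled as gonadal fat, and it was taken as fat. The 25th array, congenic brain replicate 2, is outside the named triplicate and entered alternatives only. The design text calls the triplicates biological, and p-values measure the spread between these few arrays, whose number limits the precision.

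Genes were named from the platform annotation, with symbols through Entrez identifiers in RefSeq's GRCm38.p6 table; 247 probes with several genes were not named. The members and lists were chosen with earlier results of these data known. The text names, in each tissue, the 4 largest positive and 3 largest negative called tissue differences, the 3 members of smallest p between strains, the Rab3, Rab27, Rab11, Rab5 and Stx1 families, the members on chromosome 7, and of the partners the 3 largest tissue differences and the 2 smallest p between strains. Alternatives were another scaling, the series matrix values, other filters, no intensity trend, no block, single strains, leaving out each array, and leaving out 3 arrays that stand apart.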

Additional observations from a re-analysis of the deposited data

Results flagged for a closer look

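Of 28 sets of 6 tissue values examined for a lone array, 1 had one. Stx1a in brain was at a log2 signal of 17.33 on congenic replicate 1, with a signal to noise ratio of 102.3, against 16.71 to 16.94 on the other 5 brain arrays. The gap was 0.641 of the whole range. Chance gives such a gap in about 1 in 20 groups.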

How the results depend on the processing

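Single-strain fits moved the tissue counts most. On congenic arrays only, 11 members were higher and 9 lower in gonadal fat, against 19 and 18, and 15 were lower in gastrocnemius, against 26. No share over all probes is given for these counts. Of the 37 members called in fat over both strains, 34 had the same sign on congenic arrays. In gastrocnemius 36 of 38 did, and in both tissues the rest did not enter that fit. These fits hold 12 arrays. Leaving out 1 array gave 0 to 3 members for the strain average and 0 to 1 for the interaction, and 0 in each tissue between strains. It gave 23 to 26 higher and 13 to 15 lower in brain, 9 to 11 and 28 to 32 in liver, 16 to 20 and 14 to 19 in gonadal fat, and 10 to 13 and 22 to 27 in gastrocnemius. The correlation of the full fit was reused there. The other alternatives moved no count by over 1.5 times, and none of the 12 strain differences of smallest p, 3 in each tissue, changed sign. That of Stx6 in gastrocnemius, 0.03 within the tissue, was -0.01 in the fit across tissues. Leaving out gonadal fat congenic replicate 1, liver congenic replicate 2 and gastrocnemius B6 replicate 1 together was chosen after the data were seen. It gave 23 and 14 in brain, 9 and 31 in liver, 19 and 14 in fat, and 11 and 25 in gastrocnemius. The fat arrays kept there are those with bright reproductive tract genes. Fits without the random block by title number kept 0 calls for the strain average and the interaction. Members near or below a ratio of 3 on many arrays, such as Rab27a, detected on 10 of 24, have little signal over background to compare there.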
